A study of Xenopus laevis with 5 samples.

Results

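The genes described here encode the proteasome and the enzymes that attach, remove or direct ubiquitin. They were picked by gene name, as probe sets with a single platform gene symbol that starts with psma, psmb, psmc, psmd, psme, uba and a digit, ube2, ube3, usp and a digit, cul and a digit, fbxo, fbxw or fbxl. This gave 139 of 15490 probe sets and 120 of 7530 genes with a single symbol, 49 of them named for the proteasome and 71 for the ubiquitin pathway. RNA came from Xenopus laevis ectodermal explants, with 2 arrays of explants carrying a hormone-inducible zic1 and 3 arrays of control explants carrying beta globin. All explants were also given noggin, which turns ectoderm neural, as well as cycloheximide for 30 min to block protein synthesis and then dexamethasone for 3 h, the hormone that activates the injected zic1. Injection was done at 2 cells, the explants were cut at stage 9 and they were grown to an age equal to stage 12. The arrays of a group are named as biological replicates, but the embryos and days behind them are not given. The p-values therefore cover the spread among these 5 arrays alone, which may be technical.

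The proteasome is the protease that destroys proteins tagged with ubiquitin. Its 20S core is a barrel of alpha and beta subunits, with the cutting sites inside the beta rings, and its 19S particle recognises tagged proteins, removes the tag and unfolds the protein with a ring of ATPases. Tagging runs from an E1 activating enzyme to an E2 conjugating enzyme and an E3 ligase. Cullins and F-box proteins form a large class of E3 ligases, and deubiquitinases take the tag off again. In the early frog embryo this pathway destroys cyclins and limits beta-catenin, among many other proteins.

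Each deposited value was a ratio to the probe set's own median over the 5 arrays, so 1 array read exactly 1 for every probe set and no level could be set against that of another gene. Values of a gene are log2 ratios averaged across its probe sets, and differences are zic1 minus control on the log2 scale, ± SE from limma fitted to all 7530 genes. Zic1 itself read 5.28 and 5.07 in the zic1 arrays, against 1.00, 0.965 and 0.699 in the control arrays, in the probe set of zic1.S that differed more. The other zic1.S probe set read 1.68 and 1.76 in the zic1 arrays, against 1.00, 0.907 and 0.815 in the control arrays. Control arrays 1 and 2 shared 96 exactly equal ratios other than 1, against 7 to 31 for every other pair of arrays. With ratios alone, the presence of a cell type could not be read from its markers. Fewer cells of a type and less RNA per cell cannot be told apart in these bulk samples.

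None of the 120 genes passed an adjusted p of 0.05, a threshold that 1.93% of all genes passed (limma, 145 of 7530), and 25 genes lay at an unadjusted p under 0.05, as 22.7% of all genes did. Among probe sets 0 of 139 passed, against 1.41% of all probe sets. At an unadjusted p under 0.05 lay 27 of them, 26 lower in zic1 explants, where 20.9% of all probe sets lay in either direction. The split by direction over all probe sets is not given. Over all genes it was 13.7% lower and 9.06% higher. The proteasome genes were displaced a little to lower values. Of 49 of them, 41 read lower in zic1 explants than in controls, where 56.1% of all genes did. Their median log2 difference was -0.19 (1.14-fold lower), against -0.03 over all genes. In 26 of the 49, both zic1 arrays lay below all 3 control arrays, as in 24.8% of all genes, and in 1 gene both lay above, as in 17.3% of all genes. No minimum gap between the groups was asked for, so some of these genes are barely apart. At an unadjusted p under 0.05, 16 proteasome genes were lower and 0 higher, where 13.7% of all genes were lower and 9.06% higher.

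The median of the ubiquitin pathway genes lay closer to that of all genes. Of 71, 45 read lower in zic1 explants (63.4%, against 56.1% of all genes). Their median difference was -0.06, against -0.03 over all genes. The groups did not overlap in 28 of them. Zic1 lay below all controls in 23 (32.4%, against 24.8% of all genes) and above in 5 (7.04%, against 17.3% of all genes). At an unadjusted p under 0.05, 8 were lower and 1 higher, where 13.7% of all genes were lower and 9.06% higher.

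**Figure D1:**
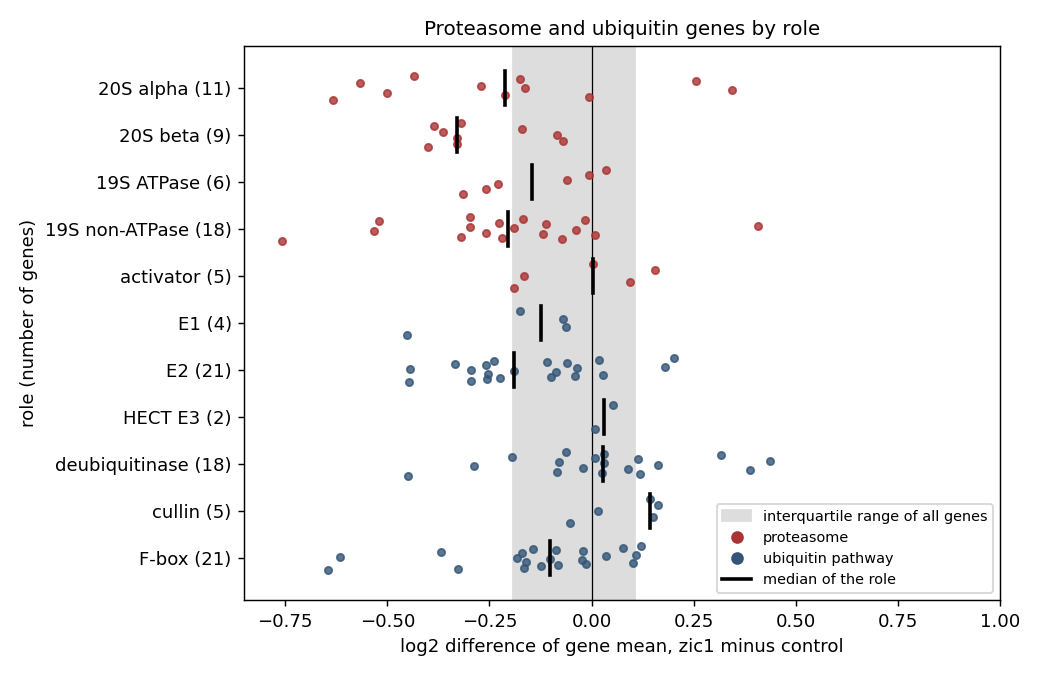
Log2 difference of the gene mean (zic1 minus control, x axis) for each gene, 1 row per role with the number of genes in brackets. Points are genes, black bars the median of the role and the grey band the interquartile range over all 7530 genes. All 9 20S beta genes lie below 0. Medians lie above 0 for the cullins, HECT E3 genes, deubiquitinases and activators. The activator row includes psme3ip1.S and has a median of 0.0023.

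The alpha subunits form the outer rings of the core and gate its entrance. Psma3.L read 0.668 and 0.836 in the zic1 arrays, against 1.00, 1.13 and 1.37 in the control arrays. Its difference of -0.63 ± 0.17 (1.55-fold lower) was the lowest among the 20S genes but did not pass (adjusted p = 0.112, limma). Psma1.S read 0.650 and 0.860 in zic1 explants, against 1.00, 1.05 and 1.29 in controls, a difference of -0.57 ± 0.17. In both genes zic1 array 1 was the lowest and control array 3 the highest.

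Psma7 is an alpha subunit for which both gene copies were measured. Psma7.S read 0.734 and 0.776 in the zic1 arrays, against 1.00, 1.05 and 1.16 in the control arrays. This gave -0.50 ± 0.10 (95% interval -0.74 to -0.26), the proteasome gene closest to the threshold (adjusted p = 0.0676, limma). Psma7.L read 0.759 and 0.871 in zic1 explants, against 1.00, 1.24 and 1.07 in controls, a difference of -0.43 ± 0.13. Neither copy overlapped between the groups. Of the 11 alpha genes, 9 read lower, with psma2.L (-0.16) and psma5.S (-0.18) nearer 0 and psma4.L at -0.0061.

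Psma6.L and psma1.L were the exceptions. Psma6.L read 1.00 and 1.05 in zic1 explants, against 0.626, 0.769 and 1.09 in controls, the highest difference of the class (0.34 ± 0.24). Psma1.L read 1.00 and 1.20 in the zic1 arrays, against 0.773, 1.03 and 0.968 in the control arrays. Control array 1 held the lowest value of both genes. Over the alpha genes the zic1 arrays averaged -0.21 and -0.10 on the log2 ratio scale, against -0.11, 0.12 and 0.16 in the control arrays, so zic1 array 2 and control array 1 stood at about the same level.

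The beta subunits carry the proteolytic sites, and all 9 beta genes read lower in zic1 explants, with a median of -0.33. Psmb6.L, psmb7.S and psmb5.L encode the 3 catalytic subunits of the standard core. Psmb6.L read 0.817 and 0.909 in the zic1 arrays, against 1.00, 1.21 and 1.21 in the control arrays, the lowest difference of the class (-0.40 ± 0.12). Psmb7.S read 0.768 and 0.892 in zic1 explants, against 1.00, 1.19 and 1.02 in controls, and psmb5.L differed by -0.17 ± 0.09. The zic1 and control arrays overlapped in none of these 3.

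Among the non-catalytic beta genes, psmb4.L (-0.39 ± 0.10), psmb2.S (-0.33 ± 0.11) and psmb1.S (-0.32 ± 0.11) also showed no overlap. The other copy of psmb2, psmb2.L, overlapped between the groups (-0.09 ± 0.08). The adjusted p of psmb4.L was 0.0993 (limma). Psmb8 and psmb9 replace catalytic subunits in the immunoproteasome of jawed vertebrates. Psmb8.L read 0.917 and 1.00 in zic1 explants, against 0.959, 1.42 and 1.28 in controls, with overlap (-0.33 ± 0.18). Psmb9.S read 0.983 and 1.01 in the zic1 arrays, against 1.00, 1.00 and 1.14 in the control arrays, a difference of -0.07 ± 0.09. Over the beta genes the zic1 arrays averaged -0.18 and -0.14, against 0.0074, 0.20 and 0.13 in the control arrays, with no overlap.

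**Figure D2:**
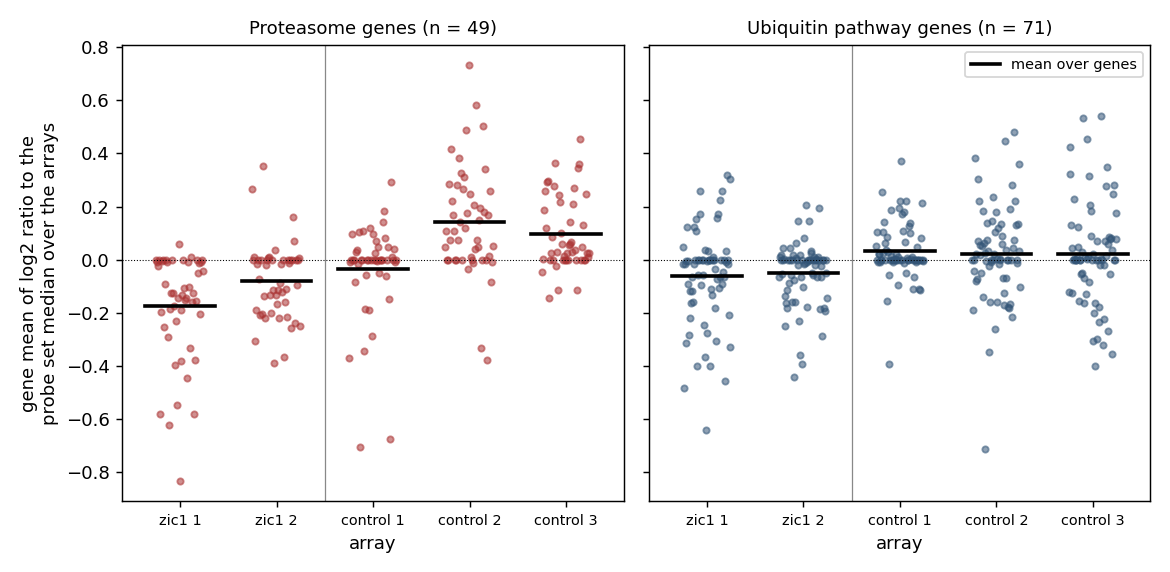
Gene means of the log2 ratio to the probe set median (y axis) in each array (x axis), for 49 proteasome genes (left) and 71 ubiquitin pathway genes (right). Points are genes and black bars the mean over genes, which for the proteasome runs from -0.17 in zic1 array 1 to 0.14 in control array 2.

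Of 24 genes grouped by their psmc and psmd names as the 19S particle, 21 read lower in zic1 explants, with a median of -0.20. This group by name includes psmd5.L and psmd10.L, which encode assembly chaperones. Among the ATPases, which unfold the substrate, the genes with a probe set of a single copy ran from -0.31 to 0.04. Psmc5.L had the lowest of the 6 ATPase genes at -0.31 ± 0.11, with readings of 0.887 and 0.913 in the zic1 arrays, against 1.00, 1.20 and 1.16 in the control arrays. Psmc3.S was the only ATPase gene above 0 (0.04 ± 0.13), and it turned to -0.12 without zic1 array 2 and -0.022 without control array 1. Psmc1.L differed by -0.0069 ± 0.16, with control array 1 low and control array 2 high.

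The other 19S genes held the widest spread. Psmd14 encodes the deubiquitinase of the 19S lid, which removes ubiquitin chains as a substrate enters. Psmd14.S read 0.562 and 0.913 in zic1 explants, against 1.07, 1.66 and 1.00 in controls. The groups did not overlap, but zic1 array 1 and control array 2 set most of the difference of -0.76 ± 0.30 (95% interval -1.50 to -0.016, adjusted p = 0.212, limma). Psmd6.L, another lid subunit, read 0.668 and 0.877 in the zic1 arrays, against 1.00, 1.22 and 1.08 in the control arrays (-0.52 ± 0.15). Psmd10.L, known in mammals as gankyrin and as an assembly chaperone of the 19S particle, read 0.685 and 0.925 in zic1 explants, against 1.08, 1.40 and 1.00 in controls (-0.53 ± 0.20).

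Smaller differences without overlap were seen in psmd1.S, a scaffold subunit of the base (-0.30 ± 0.09), and psmd4.S, a ubiquitin receptor (-0.22 ± 0.08). They were also seen in psmd7.L, the partner of psmd14 in the lid (-0.19 ± 0.07), and in psmd5.L, another assembly chaperone (-0.32 ± 0.16). Psmd5.L read 0.769 and 0.999 in the zic1 arrays, against 1.03, 1.27 and 1.00 in the control arrays. Its zic1 array 2 thus lay barely below control array 3. The 2 probe sets of psmd7.L gave -0.34 and -0.03, the latter with overlap. Psmd13.S lay at 0.0070, psmd2.S at -0.04 and psmd1.L, the other copy of psmd1, at -0.015 ± 0.07. Psmd1.L still counts as without overlap, with 0.991 and 0.999 in the zic1 arrays, against 1.006, 1.011 and 1.00 in the control arrays. Psmd14.L was the only 19S gene well above 0 (0.41 ± 0.25), with 0.994 and 1.28 in the zic1 arrays, against 0.614, 1.00 and 1.00 in the control arrays. Its values overlapped, and control array 1 stood apart below the rest.

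Proteasome activators cap the core in place of the 19S particle, and the 4 activator genes had a median of -0.08. Psme1.S, a subunit of the activator PA28, read 0.994 and 0.895 in zic1 explants, against 1.00, 1.03 and 1.21 in controls (-0.19 ± 0.11), and its partner psme2.L differed by 0.0023 ± 0.08. Psme3.L lay at -0.16 and psme4.L at 0.09, both encoding other activators of the core. Psme3ip1.S matched the name rule but encodes a protein that binds an activator, not a proteasome subunit. It read 1.04 and 1.02 in the zic1 arrays, against 0.819, 0.977 and 1.00 in the control arrays, and was the 1 gene of the proteasome group with zic1 above all controls. Without it 41 of 48 genes read lower, with a median of -0.20.

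A further 7 proteasome probe sets carried the symbols of both copies of a gene and were therefore outside the rule. All 7 read lower, where 56.1% of all genes with a single symbol did, with a median of -0.49. Of these probe sets 0 passed, where 1.41% of all probe sets did. The share of lower values over all probe sets with several symbols is not given. The probe set shared by psma3.L and psma3.S read 0.476 and 0.666 in zic1 explants, against 1.00, 1.23 and 1.13 in controls (-0.98 ± 0.17, adjusted p = 0.0666, limma). The probe set of psma3.S alone differed by less, with overlap (-0.27 ± 0.13). Psmc6 and psmc2, ATPase genes with no probe set of a single copy, differed by -0.77 ± 0.16 and -0.76 ± 0.22. The probe set for both copies of psmb2 lay nearest 0, at -0.07 ± 0.08.

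Arrays differed within the groups. Over the 49 proteasome genes the mean log2 ratio was -0.17 and -0.08 in the zic1 arrays, against -0.03, 0.14 and 0.10 in the control arrays. Zic1 array 1 held the lowest value of 28 of these genes, and control array 2 the highest value of 26. Over all 7530 genes zic1 array 1 held the lowest value of 2315, and control array 2 the highest value of 1921. The order of the proteasome means was the same over 68 cytosolic ribosomal protein genes. These averaged -0.40 and -0.16 in the zic1 arrays, against -0.0060, 0.28 and 0.23 in the control arrays, with the lowest value of 61 genes in zic1 array 1. Their part in the proteasome values was not tested. The mean over the 71 ubiquitin genes was -0.06 and -0.05 in the zic1 arrays, against 0.03, 0.02 and 0.02 in the control arrays. Over all 7530 genes the mean was -0.03 and 0.0044 in the zic1 arrays, against -0.0048, 0.03 and 0.02 in the control arrays. With each array left out in turn, the proteasome median stayed between -0.23 and -0.16, and 39 to 43 of the 49 genes read lower. Without zic1 array 1, 5 of the 120 genes lay at an unadjusted p under 0.05, against 9.47% of all genes, and without control array 2 it was 15, against 16.8% of all genes. Without zic1 array 2 the groups failed to overlap, with zic1 lower, in 34 proteasome genes, against 36.9% of all genes.

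Markers of other cell types moved with some of these arrays. Over 9 neural genes the mean log2 ratio was 0.26 and 0.17 in the zic1 arrays, against -0.04, -0.10 and -0.19 in the control arrays, with 0 probe sets past the threshold. Over 12 mesoderm and muscle genes it was 0.26 and 0.39 in zic1 explants, against -0.08, -0.13 and 0.06 in controls, but their median difference was 0.02. The 2 probe sets of that list that passed were those of myod1, a muscle regulator named here after its values were seen. Myod1.S read 5.49 and 6.49 in the zic1 arrays, against 0.699, 0.791 and 1.00 in the control arrays (adjusted p = 0.0129, limma), and myod1.L read 2.19 and 3.28 in zic1 explants, against 0.781, 0.762 and 1.00 in controls (adjusted p = 0.0396, limma). Over 14 epidermal genes the mean log2 ratio was -0.37 and -0.015 in the zic1 arrays, and ran from -0.12 to 0.35 in the control arrays, highest in control array 2. Over 5 cement gland genes it was -0.33 and -0.07 in zic1 explants, against -0.07, 0.93 and -0.15 in controls. Over 14 endoderm genes it was -0.29 and -0.11 in zic1 explants, against -0.03, -0.03 and 0.64 in controls. Of the probe sets of the epidermal, cement gland and endoderm lists 0 passed in either direction, and their part in the proteasome values was not tested.

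**Figure D3:**
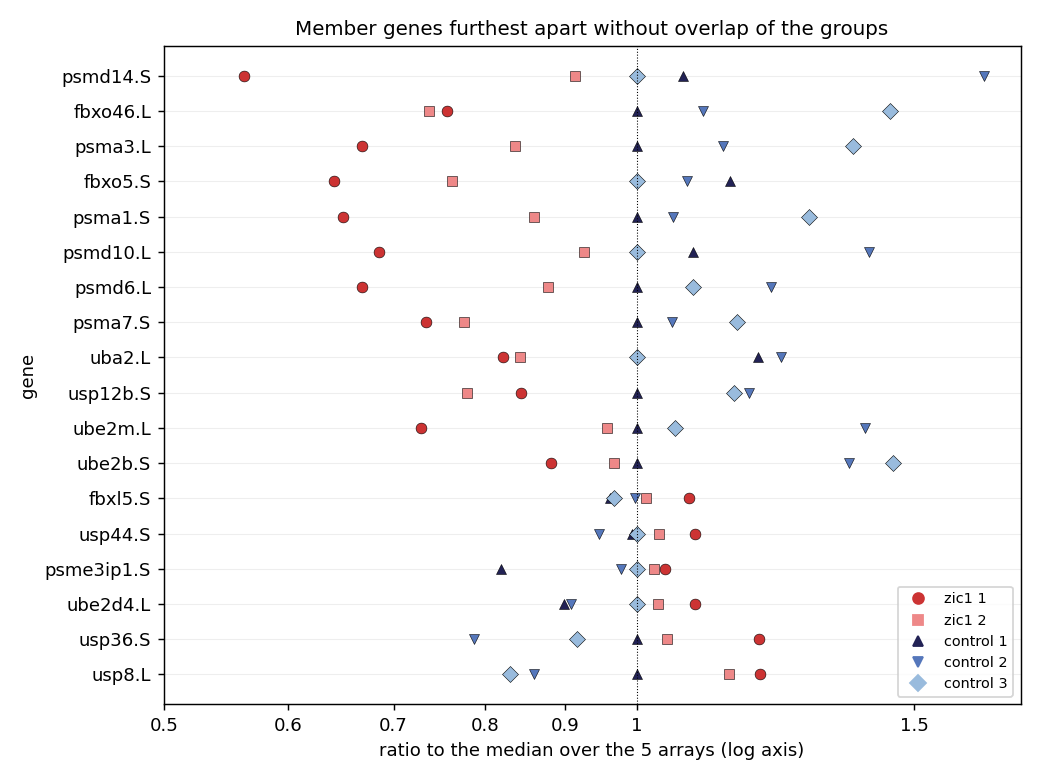
Ratio to the median over the 5 arrays (log axis) for the 12 member genes with the largest lower and the 6 with higher zic1 values, among genes whose groups did not overlap. Each symbol is 1 array. Zic1 array 1 lies furthest left in 10 of the first 12 genes, and psmd14.S spans 0.562 to 1.66. By the choice of these 12 genes only a zic1 array can lie furthest left. Over all 7530 genes zic1 array 1 is lowest in 2315 and zic1 array 2 in 928.

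Among the E1 genes with a probe set of a single copy, uba2.L had the lowest difference. Uba2 is a subunit of the E1 for SUMO, a relative of ubiquitin. It read 0.822 and 0.842 in zic1 explants, against 1.19, 1.24 and 1.00 in controls, a difference of -0.45 ± 0.12 (adjusted p = 0.104, limma). Without control array 3 it was -0.55 and passed (adjusted p = 0.0463, limma), as 2.92% of all genes did. Uba1, the main E1 of ubiquitin itself, differed by -0.06 ± 0.15 for uba1.L, which turned to 0.059 without control array 3, and by -0.18 ± 0.09 for uba1.S. A probe set with both uba1 symbols read 0.732 and 0.808 in zic1 explants, against 1.00, 1.22 and 1.12 in controls (-0.53 ± 0.11, adjusted p = 0.0859, limma).

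Of the 21 E2 genes 17 read lower (56.1% of all genes did), with a median of -0.19, near that of the proteasome genes. Zic1 lay below all controls in 11 of them, as in 24.8% of all genes. At an unadjusted p under 0.05, 3 were lower, where 13.7% of all genes were. Ube2m.L, the E2 for the ubiquitin relative NEDD8 that activates cullins, read 0.729 and 0.957 in the zic1 arrays, against 1.00, 1.40 and 1.06 in the control arrays (-0.45 ± 0.19). Ube2b.S, of the RAD6 type that acts in DNA damage tolerance, read 0.881 and 0.966 in zic1 explants, against 1.00, 1.36 and 1.46 in controls (-0.45 ± 0.18). In ube2b.S the control arrays were spread more widely than the zic1 arrays (SD of the log2 ratio 0.094 in zic1 and 0.29 in controls), while in ube2m.L the spread was similar (0.28 in zic1 and 0.26 in controls).

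Ube2n and the catalytically inactive ube2v proteins work as pairs that build chains used in signalling. Ube2n.S (-0.33 ± 0.15), ube2v1.L (-0.26 ± 0.12) and ube2v2.S (-0.25 ± 0.08) all lay below the controls without overlap. The E2 enzymes of the anaphase-promoting complex lay nearer 0, at -0.03 for ube2c.L, -0.04 for ube2c.S and -0.11 for ube2s.S. Ube2g1.S (0.20 ± 0.11) and ube2d4.L (0.18 ± 0.09) had the highest differences. Only ube2d4.L, with 1.09 and 1.03 in the zic1 arrays, against 0.899, 0.908 and 1.00 in the control arrays, had no overlap on the higher side.

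The lowest differences among the ubiquitin pathway genes were those of the F-box genes fbxo46.L and fbxo5.S. Fbxo5.S encodes Emi1, which in frog and mammals inhibits the anaphase-promoting complex and so spares cyclins. It read 0.642 and 0.762 in zic1 explants, against 1.15, 1.07 and 1.00 in controls. The difference of -0.62 ± 0.11 (1.53-fold lower, 95% interval -0.90 to -0.34) was the nearest to the threshold among all 120 genes (adjusted p = 0.0623, limma). Fbxo46.L read 0.757 and 0.737 in the zic1 arrays, against 1.00, 1.10 and 1.45 in the control arrays (-0.64 ± 0.17, adjusted p = 0.107, limma), so both zic1 arrays stood together and control array 3 stood highest. This gene rests on a single probe set with an x suffix, a kind left out in an alternative run. Psmb4.L and ube2g1.S, with an a suffix, and ube2v1.L, with an s suffix, also rest on a single probe set and dropped out of that run.

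Of the 21 F-box genes 16 read lower, with a median of -0.10. Next were fbxw2.L at -0.37 ± 0.18, with overlap, and fbxo4.L at -0.33 ± 0.10, without overlap. Fbxl14.S, known in frog as a partner that destabilises snail family proteins, had the highest value of the class (0.12 ± 0.15). It read 1.25 and 1.00 in zic1 explants, against 0.924, 0.991 and 1.19 in controls, with overlap, and turned to -0.040 without zic1 array 1. The gene mean of fbxl5.S, a sensor of iron, had no overlap on the higher side (0.10 ± 0.08). Its 3 probe sets gave -0.07, 0.09 and 0.28, and only the last had no overlap.

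Cullins, the scaffolds that F-box proteins and other adaptors dock on, ran from -0.05 ± 0.08 for cul1.S to 0.16 ± 0.10 for cul3.S, with a median of 0.14 over 5 genes. All of them overlapped between the groups. The HECT ligase ube3a.S read 1.00 and 1.00 in the zic1 arrays, against 1.00, 0.983 and 1.01 in the control arrays, which placed its difference at 0.0090 (95% interval -0.17 to 0.19). Ube3c.S differed by 0.05 ± 0.19, with 1.29 in control array 1 and 0.895 and 0.871 in the other control arrays.

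Deubiquitinases ran both ways, with 7 of 18 lower and a median of 0.03. Usp12b.S was the lowest, with 0.843 and 0.779 in zic1 explants, against 1.00, 1.18 and 1.15 in controls (-0.45 ± 0.11, adjusted p = 0.0897, limma). Usp8.L, an enzyme that acts on endosomal cargo, read 1.20 and 1.14 in the zic1 arrays, against 1.00, 0.860 and 0.830 in the control arrays. Its difference of 0.39 ± 0.11 (adjusted p = 0.117, limma) came from a pair of probe sets that gave 0.73 and 0.04. Usp8.L was the only member gene higher at an unadjusted p under 0.05.

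Usp36.S, a nucleolar deubiquitinase, read 1.20 and 1.04 in zic1 explants, against 1.00, 0.787 and 0.915 in controls (0.32 ± 0.13). Usp44.S, which in human cells delays the onset of anaphase, differed by 0.11 ± 0.08, also without overlap. Usp5.L had the highest difference of all members at 0.44 ± 0.22, but its 1.11 and 1.00 in the zic1 arrays overlapped the 0.761, 0.610 and 1.02 of the control arrays. Among the 16 member genes with several probe sets, 7 had probe sets of opposite sign, and usp8.L had the widest gap at 0.69.

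Xenopus laevis is allotetraploid and carries many genes as an L and an S copy, whose near-identical sequences can share signal on short probes. Both copies were measured in 19 member genes. Both read lower in 10 of these pairs, against 399 of 1017 pairs over the whole array. Both read higher in 0, against 256 of the 1017. The signs were opposite in 9, against 35.6% of the 1017. Psmd14, psma1, psma6 and usp5 each had an L copy above 0 and an S copy below it.

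The comparison of copies was made after the values were seen. S minus L, psma1 gave -0.62 and -0.48 in the zic1 arrays, against 0.37, 0.026 and 0.41 in the control arrays, a zic1-minus-control difference of -0.82 ± 0.15 (adjusted p = 0.0531, limma over 1017 pairs). Psmd14 gave -0.82 and -0.49 in zic1 explants, against 0.80, 0.73 and 0.00 in controls, a difference of -1.16 ± 0.26 (adjusted p = 0.0729, limma). The groups did not overlap in either gene. Usp5 differed by -0.72 ± 0.21 and psma6 by -0.56 ± 0.19. None of the 19 pairs passed, as 2.26% of all pairs did, and 6 lay at an unadjusted p under 0.05, against 21.6% of all pairs.

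With control array 3 left out these 4 pairs passed, as 8.85% of all pairs did, with adjusted p of 0.0368 for psma1, 0.0233 for psma6, 0.00628 for psmd14 and 0.0440 for usp5 (limma). With zic1 array 1 left out the same pairs had adjusted p of 0.462, 0.675, 0.522 and 0.714 (limma), and none of the 19 pairs passed without any other single array. With 2 sets of arrays as a block 1 pair passed (psma1, 2.56% of all pairs), and with array weights 3 passed (7.28% of all pairs). Control array 1 held the lowest L value in psma1 (0.773), psma6 (0.626) and psmd14 (0.614), and control array 2 in usp5 (0.610). In psma3, psma7 and psmd6 both copies read lower, and psma7 had nearly the same difference in each. The other 2 had unlike differences, at -0.63 for psma3.L and -0.27 for psma3.S, and at -0.52 for psmd6.L and -0.12 for psmd6.S. The psmd6 pair was among those at an unadjusted p under 0.05 (S minus L 0.40 ± 0.16, limma).

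**Figure D4:**
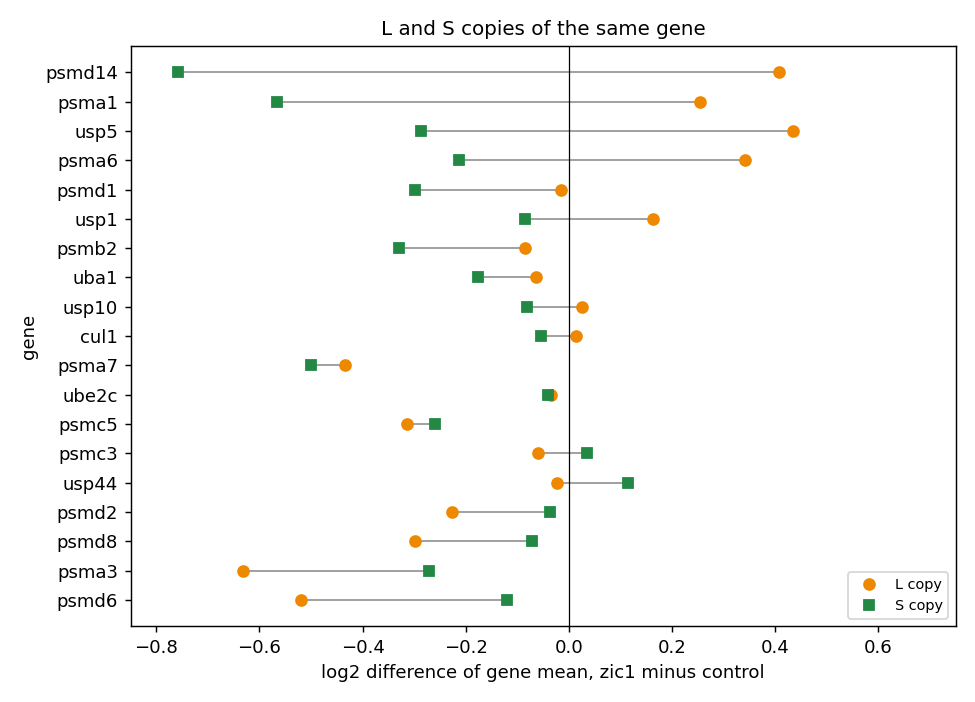
Log2 difference of the gene mean (zic1 minus control, x axis) for the L copy (circle) and the S copy (square) of the 19 member genes with both measured. The widest gaps are in psmd14, psma1, usp5 and psma6, where the L copy is above 0 and the S copy below.

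Other genes of the pathway, from a list of 120 symbols of which 75 were measured, also passed in 0 of 106 probe sets. Of 86 genes 59 read lower, against 56.1% of all genes, with a median of -0.11. Zic1 lay below all controls in 31 (24.8% of all genes) and above in 8 (17.3% of all genes). Chaperones that assemble the core were among the lower ones: pomp.S read 0.734 and 0.848 in zic1 explants, against 1.00, 1.23 and 1.09 in controls (-0.48 ± 0.12), and psmg1.L differed by -0.30 ± 0.11. Ubqln4, which carries tagged proteins to the proteasome, differed by -0.50 ± 0.09 for ubqln4.L (adjusted p = 0.0569, limma) and -0.46 ± 0.12 for ubqln4.S. The L copy read 0.735 and 0.757 in the zic1 arrays, against 1.12, 1.05 and 1.00 in the control arrays.

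Vcp.S, the ATPase that extracts tagged proteins, differed by -0.28 ± 0.09, and its cofactor ufd1.L by -0.48 ± 0.16. The COP9 signalosome removes NEDD8 from cullins, and its genes cops3.L (-0.56 ± 0.21), cops8.S (-0.51 ± 0.17) and cops5.S (-0.42 ± 0.15) had no overlap, while cops8.L lay at -0.01. Nfe2l1.S, whose mammalian counterpart induces proteasome genes, differed by -0.61 ± 0.25 with overlap. Of the other subunits that work with cul1, skp1.L differed by -0.17 ± 0.10, btrc.L by 0.18 ± 0.12 and btrc.S by -0.02 ± 0.10.

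Ubr2.S, a ligase that recognises the first residue of its substrates, was the highest of the list at 0.54 ± 0.12 (adjusted p = 0.0783, limma). Its probe set with the largest difference read 1.58 and 1.37 in zic1 explants, against 0.970, 0.815 and 1.00 in controls. The other ubr2.S probe sets gave 0.54 and 0.40, so every probe set of this gene stood higher.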

How the data were processed

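RNA of 5 samples was hybridised to Xenopus laevis Affymetrix arrays from 2 µg of total RNA. Per the submitters' processing notes, GCOS and RMA were used, without versions or roles. The deposited values are ratios: in all 15571 complete rows the median over the arrays was exactly 1, a centring found from the values and stated by no source used here. Of 15572 rows, 81 Affymetrix controls and 1 row with missing values were left out. Symbols came from the platform annotation, and all 139 member probe sets matched the gene table by identifier. The absolute signal was not kept, so background could not be checked, and precision is limited by how few arrays there are. No sequences are printed, since none were used here.

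Log2 ratios were averaged per gene and fitted with limma 3.58.1 (lmFit, eBayes; R 4.3.3) over 15490 probe sets and over 7530 genes, with Benjamini-Hochberg adjustment over each table and a threshold of 0.05. The scripts were tested on simulated data. Named genes were all calls, the 12 largest rises and falls without overlap, the extremes of each role and a short list of fixed genes; others were named after their values were seen. The members and lists were chosen with earlier results of these data known. Alternatives were each array left out, cyclic loess, median centring, other probe sets, a pseudocount of 1, blocks, array weights, other priors and thresholds, and merged copies. Plots used matplotlib 3.10.9.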

Additional observations from a re-analysis of the deposited data

How the results depend on the processing

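The proteasome median stayed below 0 in each alternative run: it lay between -0.23 and -0.16 with each array left out, and was -0.19 after cyclic loess, -0.18 with L and S copies averaged and -0.20 with 2 sets of arrays as a block (a grouping from earlier work that the labels do not state). With log2(value + 1) it was -0.097 and the ubiquitin median -0.035, a scale that shrinks every log2 difference. The ubiquitin median ran from -0.083 to -0.042 with single arrays left out. Proteasome genes with zic1 below all controls numbered 28 to 34 with single arrays left out. Over all genes this share was 28.9% to 36.9% in those runs, against 24.8% in the main run. Ubiquitin genes with zic1 above all controls numbered 6 to 12 with single arrays left out. Both counts rose, as fewer arrays overlap less often. Cyclic loess gave 9 ubiquitin genes with zic1 above all controls, and the cause was not tested. The share of all genes above all controls was 17.3% in the main run and is not given for the alternatives.

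Adjusted calls were unstable over the whole array: 219 probe sets passed, against 0 to 207 with single arrays left out, 0 after cyclic loess (3331 at an unadjusted p under 0.05), 0 without variance moderation (2096 unadjusted), 37 with the sets as a block, 935 with array weights and 1054 at an adjusted p under 0.10. Member probe sets past the threshold numbered 3 with array weights and 5 at 0.10, member genes 4 and 4 of 120 (7.72% and 8.14% of all genes), and other pathway probe sets 4 and 5; single arrays left out gave 0 to 1 member genes, and 0 in both probe set counts. The replicate numbers in the labels are not said to mark shared embryos or days. With them as a replicate block, which leaves 1 pair each for numbers 1 and 2, 2692 probe sets, 20 member probe sets, 19 member genes (18.6% of all genes passed) and 16 other pathway probe sets passed. The deviations of same-numbered arrays correlated at 0.32 and 0.28. Deviations from the mean of 2 zic1 arrays mirror each other, so these are not 2 separate readings. Among 405 values of 37 named genes, 12 changed sign, for 7 genes whose main difference was small. With single arrays left out, cul1.L ran from -0.042 to 0.071, fbxl14.S from -0.040 to 0.28, psmc3.S from -0.12 to 0.20, psme2.L from -0.037 to 0.025, ube3a.S from -0.00072 to 0.016, ube3c.S from -0.050 to 0.24 and uba1.L from -0.17 to 0.059, and psme2.L was -0.0030 with the sets as a block; the cause was not tested.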
